A study of Mus musculus with 13 samples.

Results

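The cytosolic ribosomal protein genes of the mouse hippocampus are described here across 3 treatments of 5xFAD mice. They were chosen by name, not by level or response: a gene symbol made of Rpl or Rps and a number, with an optional a, x or l and a further number, or one of Rpsa, Rplp0, Rplp1 and Rplp2, in a row annotated as protein-coding, with symbols of pseudogenes left out. The rule found 83 genes among 36287 rows, 50 of the large subunit and 33 of the small subunit. A further 4 rows had a fitting name but no protein-coding type.

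All 13 libraries come from 5xFAD mice, a model that carries human amyloid precursor protein and presenilin transgenes with familial Alzheimer's disease mutations under a neuronal promoter. Saline was the treatment in 4 libraries (18, 19, 32 and 38) and ACLP-NT, a nanomedicine known here by its code name, in 5 (17, 27, 49, 53 and 55). Aducanumab, which binds amyloid beta in its aggregated forms, was the treatment in 4 (24, 50, 56 and 58). Each number is the one in the library's title, read here as the number of the mouse, and the labels used here give no age, dose, time or batch. Wild-type hippocampus is not analysed here, and the saline group is the baseline for every difference. Since the labels do not state outright that each library is a separate mouse, p-values measure only the spread between these samples, which may be technical.

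The ribosome builds every protein of the cell, and each of its subunits pairs ribosomal RNA with a fixed set of proteins, most of them present as 1 copy per particle. Cells therefore tend to make the messages of these proteins in step. In mammals most of these messages begin with a cytosine followed by a run of pyrimidines, the terminal oligopyrimidine (TOP) motif, through which the kinase complex mTORC1 and the protein Larp1 control their translation. Most of the genes have also left processed pseudogenes, copies of their spliced message scattered over the mouse genome, some of them nearly identical in sequence.

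The pyrimidine starts can be read in RefSeq promoter windows of the GRCm38.p6 build. Of the 83 genes, 62 had a window, and in 13 of these (21.0%) a window had a C at the annotated start followed by at least 4 pyrimidines. Over all 27025 genes with windows the share was 3.01%. The lines show 15 bases before and 15 bases from the annotated start, on the gene's own strand, with the pyrimidine run in capitals. Rps6, Rpl15, Rps18, Rps10 and Rpl28 are shown as pyrimidine starts in RefSeq, and Rps12, Rpl39 and Rpl11, the genes with the smallest p-values in ACLP-NT against saline, for contrast.
Rps6, chr4:86857353-86857382, minus strand: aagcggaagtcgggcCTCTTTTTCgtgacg
Rpl15, chr14:18270972-18271001, minus strand: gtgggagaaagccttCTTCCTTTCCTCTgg
Rps18, chr17:33955651-33955680, minus strand: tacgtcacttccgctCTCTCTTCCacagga
Rps10, chr17:27635230-27635259, minus strand: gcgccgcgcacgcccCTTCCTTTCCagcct
Rpl28, chr7:4792950-4792979, plus strand: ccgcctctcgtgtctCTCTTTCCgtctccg
Rps12, chr10:23787195-23787224, minus strand: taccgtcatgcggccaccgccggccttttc
Rpl39, chrX:37085208-37085237, minus strand: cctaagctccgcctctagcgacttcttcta
Rpl11, chr4:136053379-136053408, minus strand: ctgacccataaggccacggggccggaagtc
Starts depend on the annotation: the GENCODE transcripts of Rps18 and Rps10 also begin with such a run, and those of Rps6, Rpl15 and Rpl28 do not. Over GENCODE transcripts 22 of 82 genes (26.8%) had such a start, against 5.49% of 18300 protein-coding genes. The last 3 windows have no such run at the annotated start, which says only that these letters are not at that position. The 6-letter word CTTCCG, or its reverse complement CGGAAG, was in the 300-base window of 42 of the 62 genes (67.7%), against 18.8% over all genes with windows. TATAAA between 40 and 16 bases before the start was in 1 of the 62 (1.61%), against 2.41%.

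Near-identical copies are shown for 3 genes whose counts, as described further on, were low in libraries where those of their copies were high. Coordinates here are those of the GENCODE GRCm38 annotation, and sequences are coding-strand bases counted from 1 at the start codon. Rpl7a (chr2:26910764-26913318, plus strand) and its processed pseudogene Rpl7a-ps11 (chrX:166854211-166855011, plus strand) align over all 798 coding bases with 2 substitutions, A186G and A747C, where the first letter is the gene's base. Bases 156 to 215 hold the first of them, in capitals.
Rpl7a: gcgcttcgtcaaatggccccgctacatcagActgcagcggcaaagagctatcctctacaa
Rpl7a-ps11: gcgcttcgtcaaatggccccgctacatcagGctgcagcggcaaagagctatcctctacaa
Rps27 (chr3:90212522-90213651, minus strand) and Rps27rt (chr9:114982366-114982739, minus strand) are identical over the 252 coding bases. Rps28 (chr17:33819027-33824562, minus strand) and the processed pseudogene Gm10443 (chr6:86334031-86334240, plus strand) are identical over the 207 coding bases. Their first 60 bases are printed once for each pair.
Rps27 and Rps27rt: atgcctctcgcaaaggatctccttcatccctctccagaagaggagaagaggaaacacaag
Rps28 and Gm10443: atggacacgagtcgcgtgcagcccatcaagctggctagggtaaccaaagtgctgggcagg
A read that covers only bases identical in gene and copy cannot be told from one of the copy by its letters.

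Total counts per library ran from 53642019 to 69734713, and the ribosomal protein genes took 452422 to 653801 of them. Marker genes of hippocampal dentate granule neurons were present in every library, with a summed level of 318.7 to 439.3 CPM (counts scaled to the library total, here after TMM scaling). Markers of choroid plexus, a tissue that borders the hippocampus, ran from 259.9 to 8314 summed CPM and did so within every group (saline from 259.9 to 7979, Aducanumab from 301.2 to 8314, ACLP-NT from 298.8 to 7936). Microglial markers summed to between 1549 and 1932 CPM in the saline libraries, and the ranges were 1265 to 1636 with Aducanumab and 1020 to 1603 with ACLP-NT. The part of either in the ribosomal protein values was not tested.

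By level, the deposited FPKM (fragments scaled to gene length and library total) placed these genes over a wide range. Of the 83 genes, 12 had a mean above 100 FPKM over the 13 libraries, 64 lay between 10 and 100, and 7 lay under 10. The highest was Rplp1, a protein of the stalk that recruits elongation factors, with 357 ± 17.1 FPKM (SD, n = 13). Rps15 followed with 238 ± 11.4, then Rpl4 with 221 ± 6.60, Rps3a1 with 208 ± 10.9 and Rpl19 with 170 ± 9.27. Each library's value lay between 333 and 381 FPKM for Rplp1 and between 222 and 261 for Rps15, so the first place did not overlap with the second. The ranges of Rps15, Rpl4 (210 to 233) and Rps3a1 (189 to 226) overlapped.

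The lowest 3 levels belonged to Rpl39l, Rpl3l and Rps27l, paralogs of other members. Rps28 (5.84 FPKM) and Rpl21 (6.19) came next, below the other paralogs. Rpl39l, a relative of the exit-tunnel protein Rpl39 that is abundant in testis, had 0.060 ± 0.085 FPKM and 0 to 16 counts, with a count of 0 in 7 of the 13 libraries. Rpl3l, the striated-muscle relative of Rpl3, had 0.14 ± 0.085 FPKM, beside 105 ± 3.45 for Rpl3. Rps27l, the p53-responsive relative of Rps27, had 4.92 ± 0.825, beside 14.2 ± 5.84 for Rps27. Rpl22l1 stood at 6.88 ± 0.332 beside 24.6 ± 1.35 for Rpl22, Rpl7l1 at 9.42 ± 0.343 beside 65.5 ± 2.86 for Rpl7, and Rps4l at 10.4 ± 1.505 beside 126 ± 7.01 for Rps4x. In each of these 6 pairs the paralog was the lower one in mean FPKM.

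**Figure D1:**
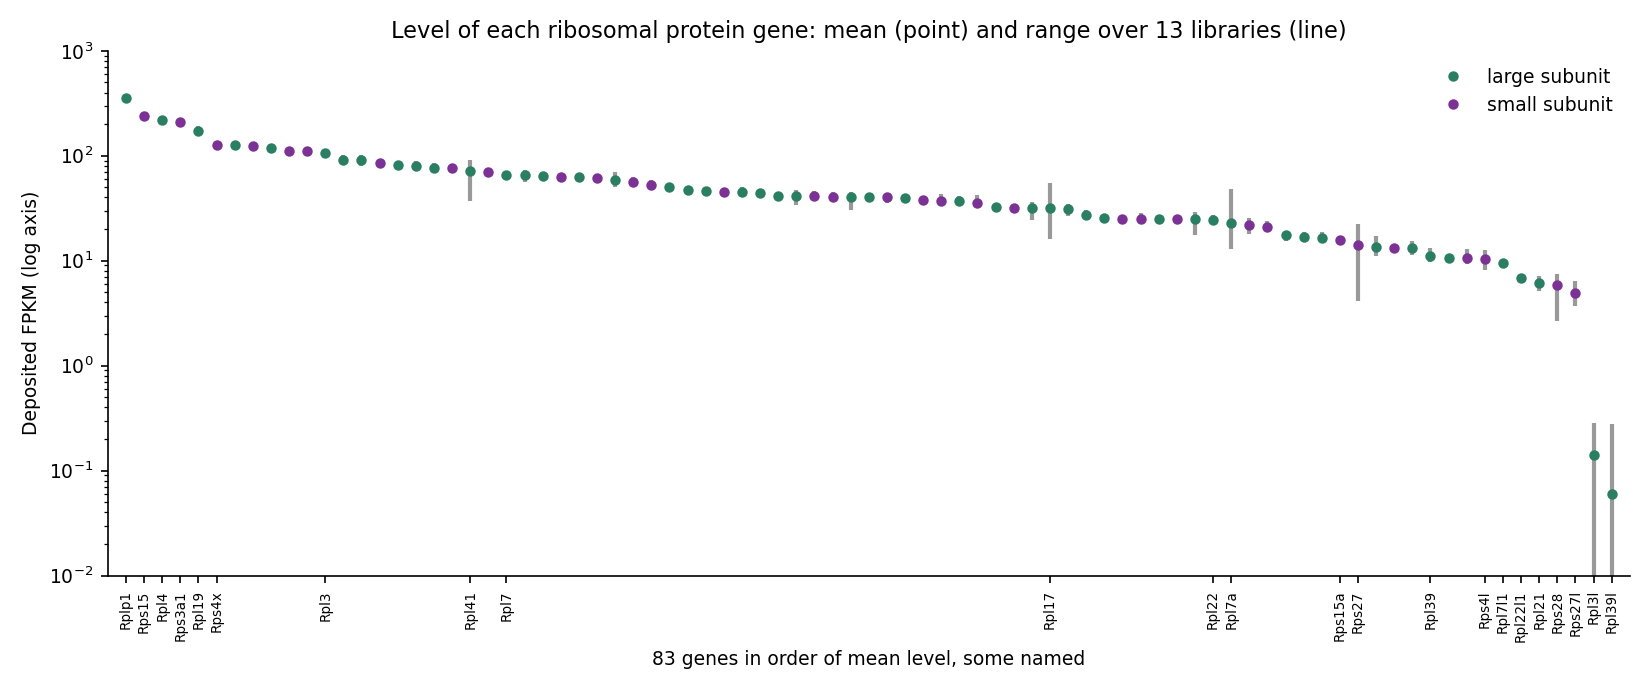
Deposited FPKM of the 83 genes on a log axis, ordered by mean; points are means over 13 libraries, coloured by subunit, and lines run from the lowest to the highest library; genes described in the text for their level or spread are named. Most lines are shorter than the point, while Rpl17, Rpl7a, Rps27, Rps28 and Rpl41 span wide ranges; lines that reach the lower edge include a library at 0.

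Part of the spread in FPKM between genes goes with the length used for scaling. Count and FPKM together imply a length per gene. It was set beside the length of a single GENCODE messenger RNA per gene, the one with the longest coding sequence. For the 77 genes outside the 6 paralogs named above it was 1.08 to 10.6 times that length, with a median of 2.53. For Rplp1 the implied length was 537 bases beside a message of 499, and for Rps15a it was 6754 beside 640. Rps15a accordingly stood at 15.9 FPKM although its count per kilobase of message was 168 CPM. On the scale of CPM per kilobase of message the highest of these 77 genes was 24.6 times the lowest, against 61.1 times in FPKM. The lowest was Rps20 (15.6), whose picked message has 3706 bases, and the next was Rpl21 (25.3). The ratio of 24.6 thus depends on the message picked for Rps20. Orders of FPKM between single genes therefore hold for the deposited scale alone.

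The ribosomal protein genes took close to the same share of every library. In saline the share of all counts was 0.843%, 0.877%, 0.902% and 0.938% for animals 18, 19, 32 and 38. In Aducanumab it was 0.852%, 0.851%, 0.826% and 0.893% for animals 24, 50, 56 and 58. In ACLP-NT it was 0.883%, 0.816%, 0.860%, 0.843% and 0.886% for animals 17, 27, 49, 53 and 55. The group means were 0.890 ± 0.0401 (SD, n = 4), 0.855 ± 0.0278 (n = 4) and 0.858 ± 0.0289% (n = 5). Saline 38 was the highest of the 13 and saline 18 among the lower ones, so the saline range covers most of both treated ranges. Large-subunit counts were 1.43 to 1.47 times the small-subunit counts in every library. The 78 mitochondrial ribosomal protein genes, which serve the separate ribosome of mitochondria, took 0.168% to 0.177% of counts with overlapping groups.

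**Figure D2:**
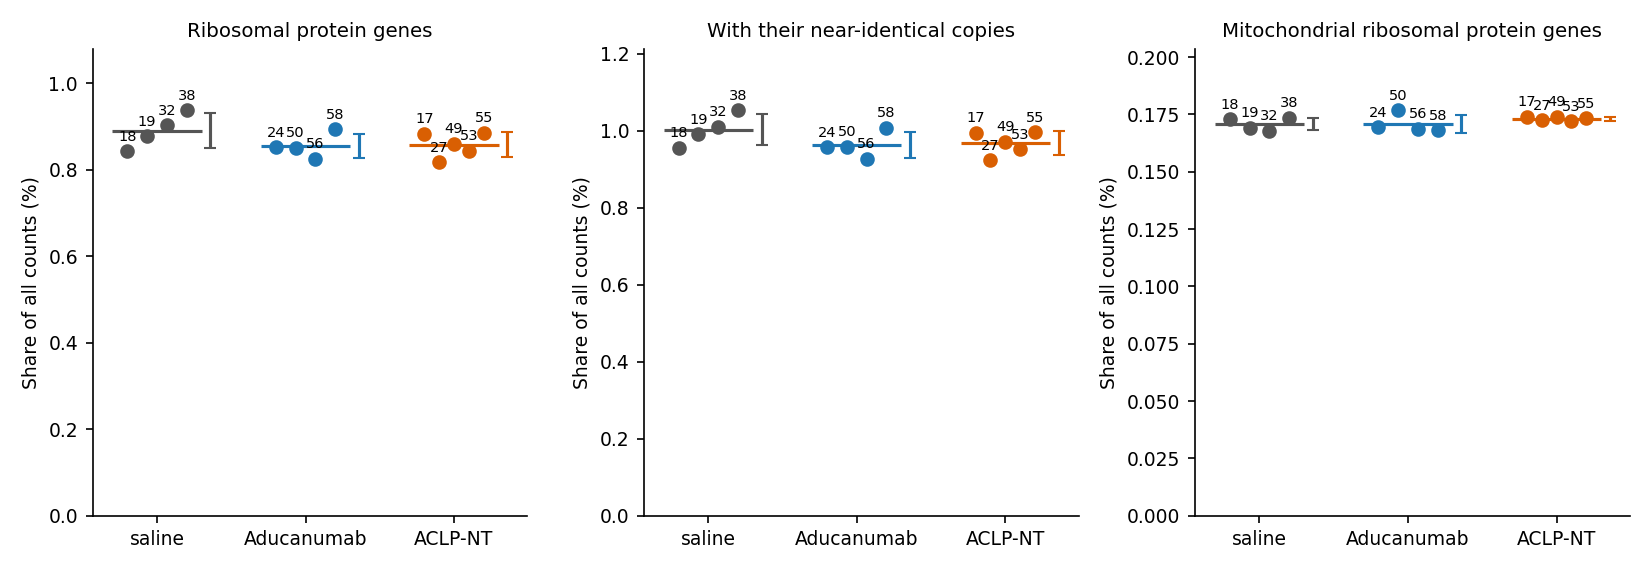
Share of all counts (%, axes from 0) in each library, with the group mean (line) and SD (bar), for the ribosomal protein genes, for the same genes with their near-identical copies, and for mitochondrial ribosomal protein genes; numbers are animals. Saline 38 is the highest in the first and second plots, at 0.938% and 1.05%, and the groups overlap in all 3.

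Across the libraries most pairs of these genes were positively correlated. Over all pairs of the 82 genes tested (3321 pairs) the median Pearson correlation of log2 CPM across the 13 libraries was 0.372, and 85.6% of pairs were positive. After the group means were taken out the median was 0.339. All pairs share the same libraries and the same scaling, so these values describe the libraries. Values for pairs of other genes are not given here. In saline 38, 78 of 82 genes lay above their own median over the 13 libraries, in saline 32 it was 62, in saline 19 it was 44 and in saline 18 it was 17. The count was 9 to 46 in the Aducanumab libraries and 10 to 59 in the ACLP-NT libraries. Rpl19, Rpl23a and Rps24 followed the mean of the other genes most closely (r = 0.893, 0.892 and 0.891), and Rps28 least (r = -0.425). The median within-group SD was 0.0782 on the log2 scale for these genes and 0.208 for all genes tested. The genes were not matched for count level, on which this SD depends.

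Among genes that are neither members nor copies, the one whose log2 CPM across the 13 libraries was most like the mean of the ribosomal protein genes was Eef1e1 (r = 0.892), an accessory protein of the multi-tRNA synthetase complex. Arap3 (0.889) and Derl2 (0.848) were also close. These are the highest values of a search through the genes tested (22065 with members and copies), each over 13 libraries. So wide a search can give high values for unrelated genes, and a link of these genes to the ribosome was not tested.

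ACLP-NT was compared with saline to see how the nanomedicine changed the messages of the ribosome. By edgeR's quasi-likelihood test with Benjamini-Hochberg adjustment over 22065 genes, 0 of the 82 ribosomal protein genes tested passed 0.05, and 0 of all genes did (0% called). DESeq2 also called 0 of the 82, and its share over all genes is not given here. Rpl39l had too few counts to be tested. At an unadjusted p under 0.05, 5 genes were lower and 0 higher, where 3.43% of all genes were lower and 2.46% higher by that rule. The fitted log2 fold change was below 0 in 68 of 82 genes (82.9%), against 50.6% of all genes, and its median was -0.053 against -0.0015. For the large subunit it was below 0 in 38 of 49 with a median of -0.048, and for the small subunit in 30 of 33 with a median of -0.056. In no ribosomal protein gene were the ACLP-NT and saline libraries apart from each other, where 1.33% of all genes lay apart lower and 0.925% higher.

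The size of this median moved with single saline libraries. Without saline 38 the median was -0.029 with 60 genes below 0, and without saline 18 it was -0.073 with 72 below 0. In hippocampal tissue as a whole, fewer cells of a type and less RNA per cell cannot be told apart.

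Rps12, a small-subunit protein known in flies for its role in cell competition, had the smallest p. It lies on the minus strand of chromosome 10, at 23661081 to 23663173 in the deposited table. Its level was 52.5, 53.8, 55.6 and 55.0 CPM in saline (18, 19, 32, 38) and 52.7, 43.8, 45.1, 41.6 and 43.4 CPM in ACLP-NT (17, 27, 49, 53, 55). Of the ACLP-NT libraries 4 lay below all saline libraries and animal 17 was level with them. The log2 fold change was -0.26 (SE 0.0737, edgeR adjusted p = 0.722), with DESeq2's adjusted p at 0.230. Over 25 alternatives the adjusted p ran from 0.230 to 0.999.

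Rpl39, a small protein that lines the exit tunnel of the large subunit, measured 17.5, 18.7, 19.8 and 20.2 CPM in saline. In ACLP-NT it measured 19.0, 15.9, 15.3, 15.04 and 16.5 CPM, with 4 of 5 libraries below the saline range. Its fitted difference was a log2 fold change of -0.22 (SE 0.0769, edgeR adjusted p = 0.752). Rpl11, which with Rpl5 and 5S RNA forms the particle that restrains the p53 inhibitor Mdm2, measured 107, 108, 116 and 118 CPM in saline and 111, 97.8, 97.4, 104 and 109 CPM in ACLP-NT, and the groups overlap. Its log2 fold change was -0.12 (SE 0.0463, edgeR adjusted p = 0.787). Rpl5 and Rpl23, the latter also a Mdm2 binder, had log2 fold changes of -0.03 and -0.09. Rpl23a and Rps10, the other members under an unadjusted p of 0.05, had log2 fold changes of -0.13 each.

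The stalk proteins Rplp0, Rplp1 and Rplp2 had log2 fold changes of -0.01 (SE 0.0474), -0.04 (SE 0.0490) and 0.02 (SE 0.0498). Rpsa, the laminin receptor homologue of the small subunit, had -0.08 (SE 0.0385, edgeR adjusted p = 0.842). Rps6, the small-subunit protein that S6 kinases phosphorylate downstream of mTORC1, measured 191 ± 13.3 CPM in saline (n = 4) and 188 ± 9.29 in ACLP-NT (n = 5), a log2 fold change of -0.03 (SE 0.0496). None of these passed the test, and their groups overlap.

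Aducanumab against saline gave a similar count, with the same saline libraries as its baseline, so the pair of comparisons is not independent. Of the 82 genes 0 passed the adjusted threshold by edgeR or DESeq2 (0% of all genes by edgeR, DESeq2's share not given here). At an unadjusted p under 0.05, 5 were lower and 0 higher, where 2.62% of all genes were lower and 2.07% higher. The log2 fold change was below 0 in 71 of 82 (86.6%), against 48.7% of all genes, with medians of -0.056 and 0.0036. It was below 0 in 41 of 49 large-subunit genes (median -0.049) and 30 of 33 small-subunit genes (median -0.066). Without saline 38 the median was -0.040 with 59 below 0, and without saline 18 it was -0.081 with 72 below 0. In 3 genes, among them Rps12 and Rpl23a, every Aducanumab library lay below every saline library after TMM scaling, where 1.41% of all genes did so. In none did every Aducanumab library lie above, where 1.16% of all genes did.

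Rps12 measured 39.5, 46.7, 39.98 and 47.7 CPM in Aducanumab (24, 50, 56, 58), all below the saline values of 52.5 to 55.6. The log2 fold change was -0.32 (SE 0.0780, edgeR adjusted p = 0.834), and DESeq2's adjusted p was 0.0800, in a range of 0.0800 to 1.0 over 25 alternatives. Rpl23a, which sits at the mouth of the exit tunnel, measured 83.8, 87.8, 90.4 and 91.7 CPM in saline and 83.7, 82.6, 76.5 and 82.7 in Aducanumab, with a log2 fold change of -0.12 (SE 0.0611). In deposited FPKM Aducanumab 58 (92.1) lay above saline 18 (91.6), so that the groups overlap there. Summed with its copies, as described further on, Rpl23a had -0.075 and overlapping groups.

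Rpl30 of the large subunit measured 44.5, 40.4, 56.5 and 49.4 CPM in saline, 36.7, 40.1, 40.6 and 41.2 in Aducanumab, and 46.7, 41.4, 43.7, 44.6 and 43.0 in ACLP-NT. The Aducanumab libraries were the lowest group, and saline 19 lay among them. Against saline the log2 fold change was -0.27 (SE 0.0842, edgeR adjusted p = 1.0), and without saline 32 it was -0.17. Summed with its copies, as described further on, Rpl30 had -0.12 against saline in Aducanumab and -0.02 in ACLP-NT, where the gene alone had -0.12. Rpl31, Rpl34 and Rpl39, the other members under an unadjusted p of 0.05, had log2 fold changes of -0.16, -0.18 and -0.18 and overlapping groups. Rps6 measured 187 ± 4.58 CPM in Aducanumab (n = 4), a log2 fold change of -0.03 (SE 0.0523).

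**Figure D3:**
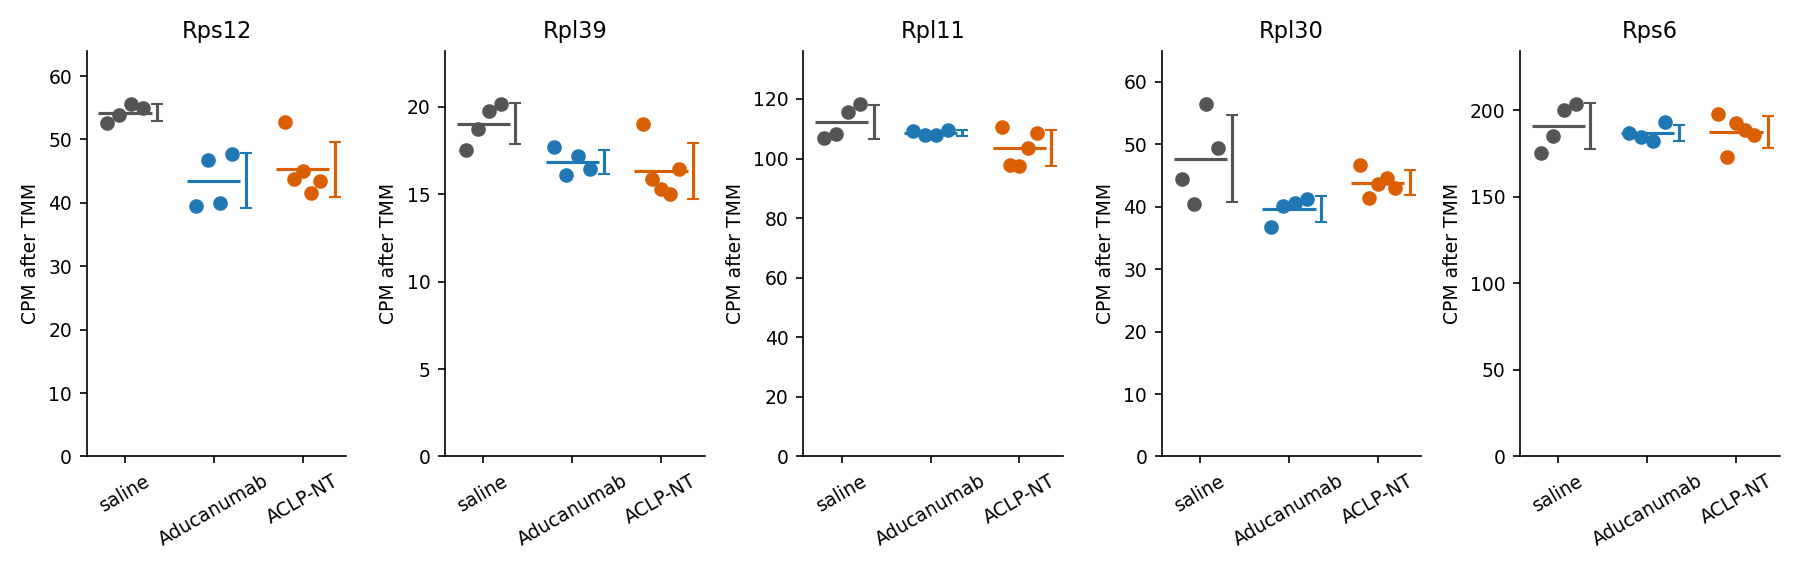
CPM after TMM scaling (axes from 0) of Rps12, Rpl39, Rpl11, Rpl30 and Rps6 in each library, with group mean (line) and SD (bar). The saline libraries of Rps12 sit between 52.5 and 55.6, above all Aducanumab libraries and 4 of 5 ACLP-NT libraries; the Rps6 groups overlap throughout.

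ACLP-NT against Aducanumab compares the treated groups without saline. Of the 82 genes 0 passed by edgeR or DESeq2 (0% of all genes by edgeR, DESeq2's share not given here). At an unadjusted p under 0.05, 1 was lower and 0 higher, where 1.71% and 1.53% of all genes were. The log2 fold change was below 0 in 37 of 82 genes (45.1%), against 52.4% of all genes, with medians of 0.0093 and -0.0064. The gene with the smallest p was Rps4l, a paralog of Rps4x, at 17.8, 18.0, 15.4 and 15.1 CPM in Aducanumab and 12.99, 12.4, 14.0, 11.7 and 16.2 in ACLP-NT. Its groups overlap through animal 55, and its log2 fold change was -0.30 (SE 0.114, edgeR adjusted p = 1). Rpl30 was the only member whose groups were apart, with every ACLP-NT library above every Aducanumab library, where 0.693% of all genes did so and 0.644% lay apart lower. That gap was under 1 CPM, and on the scale of CPM of the library total ACLP-NT 27 (40.97) lay below Aducanumab 58 (41.6), so that the groups overlap there. Its log2 fold change was 0.15 (SE 0.0801).

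By message start, the 13 genes with a pyrimidine start in RefSeq had a median log2 fold change of -0.028 in ACLP-NT against saline (8 of 13 below 0). The 48 tested genes with another annotated start had -0.053 (41 of 48). In Aducanumab against saline the medians were -0.055 (10 of 13) and -0.060 (43 of 48). The split uses RefSeq starts alone, and some genes placed under another start have a pyrimidine start in GENCODE. No test of this split was made.

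Other genes of the translation machinery, from lists chosen with earlier results of these data known, had 0 genes past the adjusted threshold in every comparison. The 16 translation factors and related genes with known TOP messages had a median log2 fold change of -0.019 in ACLP-NT against saline and -0.014 in Aducanumab against saline, with 12 of 16 below 0 in each. The smallest p among them belonged to the initiation factor subunit Eif3e in both, with -0.08 and -0.11. The 26 ribosome biogenesis genes had medians of 0.023 and 0.015, with 9 and 12 of 26 below 0. The 78 mitochondrial ribosomal protein genes had medians of 0.015 and 0.00070, with 27 and 39 of 78 below 0. The 13 mitochondrially encoded genes, which are not part of that machinery, had medians of -0.050 and 0.0067, with 12 and 5 of 13 below 0. The 17 genes of mTORC1 and TOP control had medians of 0.0084 and -0.031, and Sesn1, an inhibitor of mTORC1, had the smallest p in both (log2 fold changes 0.17 and 0.10). The 7 host genes of small nucleolar RNAs, which also carry TOP starts, had medians of 0.055 and -0.0063.

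Ribosomal proteins whose names the rule does not take include Fau, the scaffold Rack1, and Rpl36al, a paralog of Rpl36a. In ACLP-NT against saline their log2 fold changes were -0.10, -0.09 and -0.0016, and in Aducanumab against saline -0.0074, -0.06 and 0.06. Beside these, all 14 microglial markers had log2 fold changes below 0 in both comparisons (medians -0.36 and -0.27, 0 called), and all 15 choroid plexus markers were above 0 (medians 0.76 and 0.82, 0 called). All 5 markers of dentate granule neurons were above 0 in both (medians 0.23 and 0.10). Astrocyte markers were below 0 in 8 of 8 and 6 of 8 (medians -0.067 and -0.068). Red blood cell markers were below 0 in 5 of 5 in ACLP-NT and above 0 in 5 of 5 in Aducanumab (medians -0.10 and 0.46). Of these lists too, 0 genes were called. Whether these cells bear on the ribosomal protein values was not tested.

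A few ribosomal protein genes varied far more between libraries than the rest. The widest were Rpl39l and Rpl3l, which have few counts and no copies found, with coefficients of variation of 137% and 59.2%. In Rpl17, Rpl7a, Rps27 and Rps28, the next widest, libraries with more reads on the gene had fewer on its near-identical copies. Copies were rows annotated as pseudogenes, or named after a member, whose GENCODE transcript matched at least 95% of bases over at least 80% of a member's coding sequence. There were 517 such rows, 510 of them pseudogenes, for 75 of the 83 genes, and they took 11.3% of the counts of members and copies together. Levels in the next sentences are CPM of the library total. The rule by which the authors placed reads that match several loci is not given here, and its part in the pattern was not tested.

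Rpl17, a large-subunit protein by the exit tunnel, measured 27.2, 30.5, 67.6 and 43.5 CPM in saline, 23.0, 58.5, 24.3 and 77.3 in Aducanumab and 79.7, 25.0, 30.6, 65.1 and 32.5 in ACLP-NT. High and low libraries were found in all 3 groups. Its 19 copies, led by Rpl17-ps10, summed to 79.5 to 130 CPM and were low where the gene was high. The sum of gene and copies was 144 to 172 CPM. Its coefficient of variation over the 13 libraries was 4.95%, against 47.8% for the gene alone.

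Rpl7a, another large-subunit protein, measured 26.4, 44.0, 40.8 and 73.2 CPM in saline, 91.9, 30.4, 63.1 and 32.9 in Aducanumab and 32.9, 39.8, 37.2, 24.9 and 38.5 in ACLP-NT. Aducanumab 24 was the highest library, and there the 29 copies were at their lowest, 59.96 CPM against 94.4 to 135 elsewhere. The sum was 148 to 171 CPM, with a coefficient of variation of 4.42% against 44.8% for the gene. Of the sum 72.5% lay in the copies.

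Rps27, a small-subunit zinc-binding protein, measured 14.7, 23.1, 25.0 and 22.9 CPM in saline, 18.7, 4.66, 14.6 and 16.1 in Aducanumab and 22.5, 5.26, 16.2, 9.68 and 14.1 in ACLP-NT. In Aducanumab 50 and ACLP-NT 27, the lowest libraries, the copies stood at 21.3 and 22.0 CPM, the highest of the 13. Rps27rt, identical in its coding bases, held 97.8% of the copy counts. The sum was 25.5 to 33.1 CPM, with a coefficient of variation of 9.63% against 41.2%.

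Rps28, a small-subunit protein by the messenger RNA exit, was lowest in saline 32 and ACLP-NT 17, at 5.82 and 5.07 CPM, against 9.75 to 13.9 elsewhere. Its copies stood at 10.2 and 10.9 CPM in those libraries and at 2.18 to 6.18 elsewhere. Summing lowered its coefficient of variation from 25.3% to 6.003%. Smaller drops were found for Rpl37a (12.7% to 5.34%), Rps12 (12.6% to 7.33%) and Rpl21 (11.02% to 3.59%), for which 51 copies held 85.9% of the sum. The SD itself fell for Rpl37a (4.77 to 2.38 CPM) but rose for Rps12 (5.96 to 6.49) and Rpl21 (2.50 to 5.76). For Rps12 and Rpl21 the coefficient thus fell against that of the gene while the SD rose, as the sum has a larger mean. For Rpl21 the SD of the sum was nonetheless below that of the copies alone, 6.985 CPM. For Rps7 the coefficient rose on summing, from 5.53% to 8.65%. Of the 83 genes 15 had a coefficient of variation above 10% alone and 5 after summing. The 5 were the low paralogs Rpl39l, Rpl3l, Rps27l and Rps4l, and Rpl41, a very short protein whose summed level was 59.0 CPM in Aducanumab 24 and 90.5 to 115 in the other libraries. At the other end Rpl4, whose copy takes 0.0872% of the sum, had 3.02% alone.

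**Figure D4:**
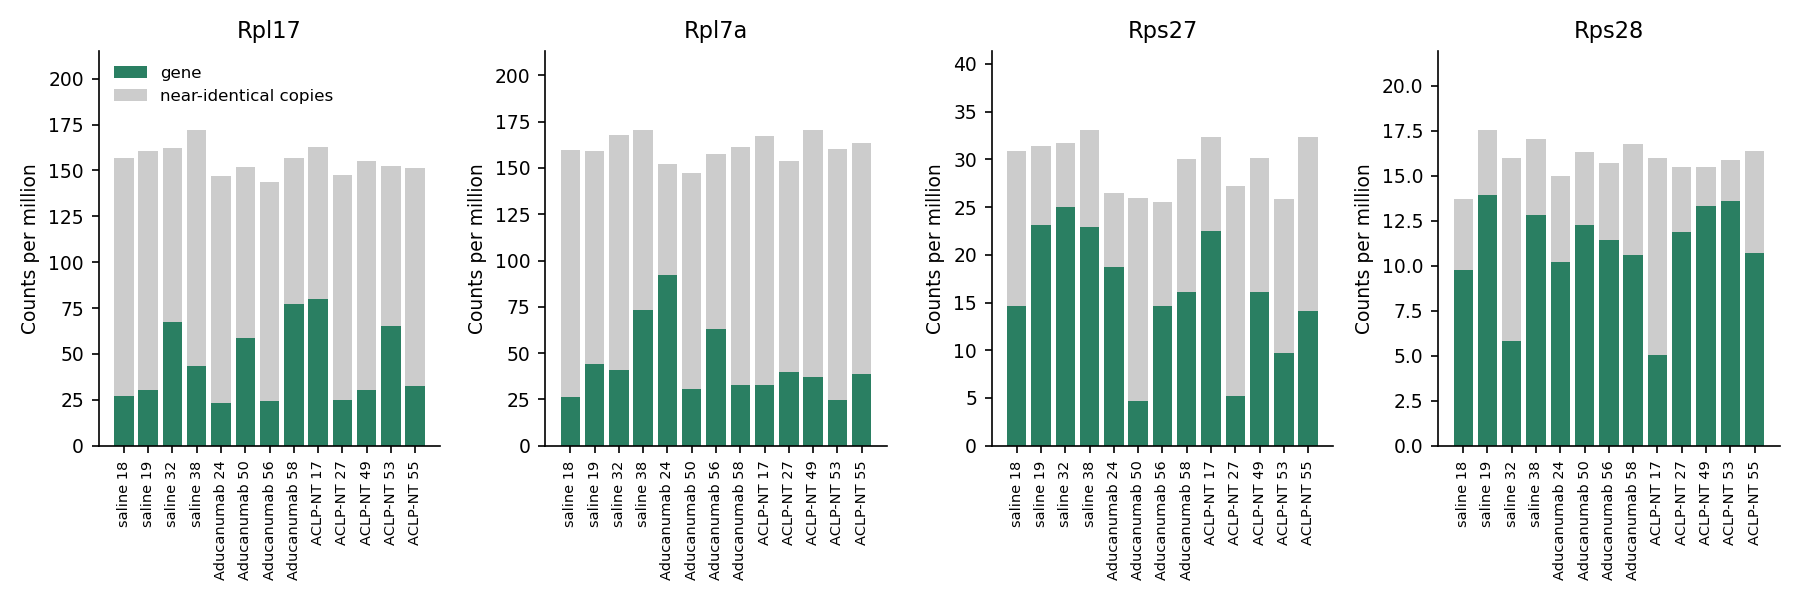
CPM of the library total (axes from 0) of Rpl17, Rpl7a, Rps27 and Rps28 (green) with their near-identical copies stacked on top (grey) in each of the 13 libraries. Over the 13 libraries the green part spans 23.0 to 79.7 for Rpl17 and 24.9 to 91.9 for Rpl7a, while the full bar spans 144 to 172 for Rpl17 and 148 to 171 for Rpl7a.

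The comparisons were refitted with each gene's counts summed with those of its copies, an alternative chosen after seeing the data (21771 rows tested). Again 0 of the 82 genes passed in any comparison (0% of all rows). The log2 fold change was below 0 in 73 of 82 genes in ACLP-NT against saline (49.8% of all rows) and in 74 of 82 in Aducanumab against saline (48.7%), with medians of -0.051 and -0.059. In ACLP-NT against Aducanumab it was below 0 in 35 of 82 (51.6%), with a median of 0.0059. At an unadjusted p under 0.05, 4, 8 and 1 genes were lower in the 3 comparisons in that order, where 3.35%, 2.6% and 1.72% of all rows were. In 6 genes, among them Rpl17, Rpl7a, Rps27, Rpl38 and Rpl39, every Aducanumab library lay below every saline library after TMM scaling (1.43% of all rows). On the scale of CPM of the library total the sums of Rpl7a overlap, at 161.1 in Aducanumab 58 and 159.3 in saline 19. Such a gap was found in none against saline for ACLP-NT (1.3% of all rows), and in none between the treated groups (0.638%). Single genes moved more than the median did. Rpl7a in ACLP-NT against Aducanumab went from -0.66 (SE 0.321) alone to 0.08 (SE 0.0383) summed, and in Aducanumab against saline from 0.26 to -0.09. Rpl17 in Aducanumab against saline went from 0.11 (SE 0.447) to -0.12 (SE 0.0385). Rps27 went from -0.66 (SE 0.386) to -0.10 (SE 0.0712) in ACLP-NT against saline, and from -0.66 to -0.23 (SE 0.0753) in Aducanumab against saline. None of these values was called in either fit.

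Rps12 also moved: summed with its 16 copies, of which Rps12-ps3 held 77.6% of the copy counts, its log2 fold change was -0.12 (SE 0.0562) in ACLP-NT against saline and -0.13 (SE 0.0594) in Aducanumab against saline. The values for the gene alone were -0.26 and -0.32. Copies held 46.4% of the Rps12 sum, so the summed fold change weighs them nearly as much as the gene. Its copies summed to 36.4, 38.6, 41.2 and 43.3 CPM in saline, 45.9, 37.3, 39.1 and 47.4 in Aducanumab and 40.8, 37.2, 42.1, 40.02 and 45.1 in ACLP-NT. Gene and copies together ran from 88.6 to 99.0 CPM in saline, from 78.7 to 95.6 in Aducanumab and from 80.5 to 93.6 in ACLP-NT, so the groups overlap in the sum. Rpl39, whose copies hold 3.63% of its sum, kept -0.22 (SE 0.0743) and -0.18 (SE 0.0785).

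**Figure D5:**
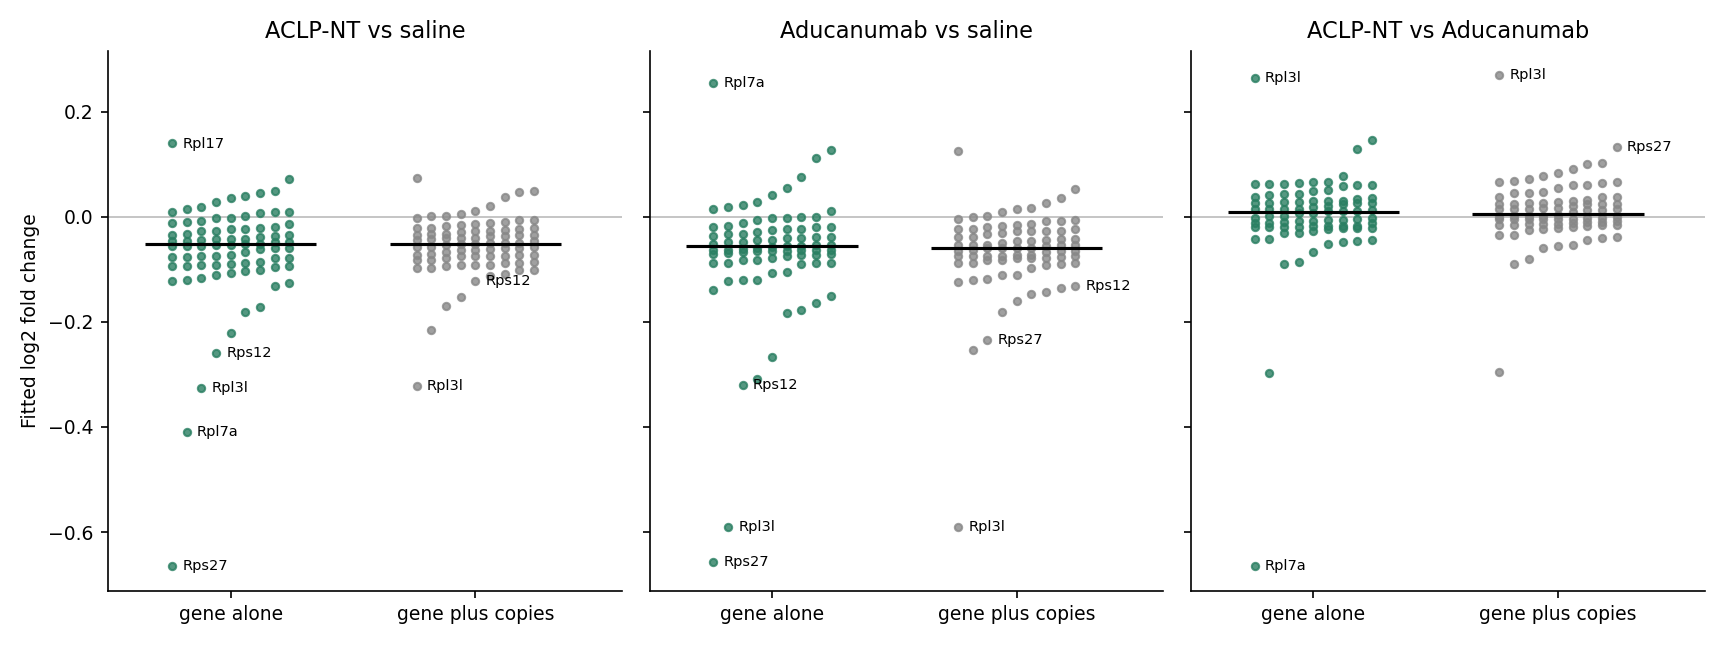
Fitted log2 fold changes of the 82 genes tested, from each gene's own counts (green) and from counts summed with its copies (grey), in the 3 comparisons; black lines are medians. The wide values of Rps27, Rpl7a and Rpl17 move toward the other genes on summing, Rpl3l, which has no copies, keeps its values, while the medians stay at -0.053 and -0.051 in ACLP-NT against saline and at -0.056 and -0.059 in Aducanumab against saline; 0 genes were called in either fit.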

How the data were processed

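Poly(A) RNA libraries of 13 hippocampi (4 saline, 4 Aducanumab, 5 ACLP-NT) were used. Per the file headers, the authors deposited FPKM values scaled to gene length and library total, and raw counts per gene as whole numbers. The tools listed in the submitters' processing notes are HISAT2 2.0.4, StringTie 1.3.4d, edgeR and cutadapt 1.9; build, annotation and counting rules are not given here. Counts were filtered with filterByExpr, scaled by TMM and tested in 1 fit of 3 groups with edgeR 4.0.16 (R 4.3.3; glmQLFit, glmQLFTest, two-sided), adjusted over 22065 genes by Benjamini-Hochberg, threshold 0.05. The SE is the absolute log2 fold change over the square root of F. All 22 pairs of libraries within a group differed beyond sampling noise (smallest chi-square divided by its degrees of freedom, 13.1). The method was tested on simulated data with changes larger than the median differences reported here. Whether it detects shifts as small as those medians was not tested. Copies were found with blastn 2.17.0. Alternatives included DESeq2 1.42.0 and limma 3.58.1 on log2(FPKM + 1). Members, lists and tests were chosen with earlier results of these data known. Members were named by smallest p (8 a comparison), level, spread and role. Rpl41, Rpl38, Rpl37a, Rpl28, Rps18, Rps15a, Rps7 and Rps20 were named after their values were seen. Results of some genes are not reported here.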

Additional observations from a re-analysis of the deposited data

Results flagged for a closer look

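In 129 groups of named values, 2 had a library that stood apart from the others of its group by Dixon's ratio (chance gives about 1 in 20). Rpl23a measured 76.5 CPM in Aducanumab 56, below the 82.6 to 83.7 CPM of the other Aducanumab libraries. Rpsa measured 388.9 CPM in Aducanumab 58, above the 367.4 to 369.4 CPM of the others.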

How the results depend on the processing

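In all 3 comparisons 0 ribosomal protein genes were called under each of 25 alternatives: other scalings, filters, DESeq2, limma on FPKM, a robust fit, only the groups compared, sums with copies, and each library left out (0 to 0 called). The median log2 fold change ran from -0.057 to -0.050 in ACLP-NT against saline, from -0.061 to -0.055 in Aducanumab against saline and from 0.0010 to 0.015 in ACLP-NT against Aducanumab. With each library left out the ranges were -0.073 to -0.029, -0.081 to -0.040 and -0.0069 to 0.024. The third median was below 0 without Aducanumab 56 (-0.0069), ACLP-NT 17 (-0.0040) or ACLP-NT 55 (-0.0061). The median share of counts, 0.860%, was 0.901% of protein-coding rows, 1.61% of summed FPKM and 0.971% with copies. No paired analysis was possible because no animal number occurs in more than 1 group. The number of libraries limits the precision of single genes; for genes with copies, the part of read assignment was not tested.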
